A study of Mus musculus with 21 samples.

Results

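The mature microRNAs (miRNAs) of whole kidney at day 0 of a folic acid time course were described in 3 of the 21 libraries of the series, those whose label gives day 0. The mice were male BALB/c, aged 12 weeks. The course gave folic acid at 250 mg/kg in sodium bicarbonate, a dose that injures renal tubules, and followed the kidneys to day 28. The labels place the day 0 mice at 0 days after the injection and do not say whether they had received folic acid or its vehicle, or that the 3 libraries came from separate animals. An SD below therefore measures the spread between 3 libraries, which may be technical. A p-value below rests on the same spread, with a variance estimated partly from all hairpins tested together. No later day was compared here.

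A miRNA gene is transcribed as a hairpin, which Drosha and Dicer cut to a duplex of a 5p and a 3p strand. One strand is usually loaded into an Argonaute protein and kept, and the other is degraded. Bases 2 to 8 of the loaded strand, the seed, pair with target messenger RNAs, so miRNAs with the same seed form a family with overlapping targets. Many hairpins lie in clusters that are transcribed as 1 unit. In the kidney, miR-192 and the miR-30 family are known from tubule cells, the miR-200 family from epithelia in general, miR-126 from endothelium and miR-143 from smooth muscle.

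The 3 libraries held 3876720, 5886820 and 3571696 reads assigned to miRNAs, numbered 1 to 3 as in their labels. Levels are given in CPM, which are reads scaled to a common library total, and as a share of these reads, each as mean ± SD (n = 3). Where a miRNA had 0 reads, a level of up to 3 reads remains possible, equal to 0.510 CPM in library 2 and 0.840 CPM in library 3. This limit and the binomial intervals cover counting error only. No pair of libraries was a duplicate: among the 139 miRNAs that averaged 100 CPM or more, the median difference between 2 libraries lay between 0.147 and 0.229 on the log2 scale. Library 3 was the farthest of the 3 from the median for 63 of these miRNAs, library 1 for 50 and library 2 for 26. Levels of different miRNAs are compared as reads; how many reads 1 molecule gives can differ between sequences, which was not tested.

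The sequences below carry the largest shares of reads or separate near-identical members of a family. They are the RefSeq mature sequences (build GRCm38.p6), written 5′ to 3′, with the seed in capitals. The first set shows the miR-10 seed, that of miR-22 and that shared by miR-192 and miR-215.
miR-10a-5p: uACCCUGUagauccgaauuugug
miR-10b-5p: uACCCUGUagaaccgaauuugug
miR-22-3p: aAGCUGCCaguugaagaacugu
miR-192-5p: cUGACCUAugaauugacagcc
miR-215-5p: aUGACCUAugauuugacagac
The second set shows 3 members of the miR-30 seed, followed by miR-26a and the miR-27 seed.
miR-30a-5p: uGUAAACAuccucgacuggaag
miR-30e-5p: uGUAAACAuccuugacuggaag
miR-30c-5p: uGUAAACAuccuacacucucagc
miR-26a-5p: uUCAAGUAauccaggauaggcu
miR-27b-3p: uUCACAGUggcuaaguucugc
miR-27a-3p: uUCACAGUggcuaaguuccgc
The third set shows the let-7 members with most reads, which differ outside the seed.
let-7f-5p: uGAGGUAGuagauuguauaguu
let-7c-5p: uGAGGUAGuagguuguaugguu
let-7a-5p: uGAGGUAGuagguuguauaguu
Counted from 1 at the 5′ end, and with the first-named miRNA's base first, miR-10a-5p and miR-10b-5p differ by U12A, miR-30a-5p and miR-30e-5p by C13U, miR-27a-3p and miR-27b-3p by C19U, let-7a-5p and let-7f-5p by G12A, and let-7a-5p and let-7c-5p by A19G. miR-192-5p and miR-215-5p differ by C1A, A12U and C20A, all outside the seed. Members this alike are told apart in the deposited table by 1 to 3 bases.

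Few miRNAs made up most of the reads. The 4 most abundant held 47.4% ± 1.15 of the reads, the top 6 held 61.9% ± 1.09, the top 20 held 87.1% ± 0.645 and the top 100 held 98.8% ± 0.0705. In each library 5 miRNAs were enough for 50% of the reads and 25 or 26 for 90%, while 99% took 110 on average. The effective number of miRNAs, the exponential of the Shannon entropy of the shares, was 24.6 ± 0.832. Of 1125 miRNAs in the table, 519 had at least 1 read in all 3 libraries, 187 in 1 or 2 of them and 419 in none. Means of at least 100, 1000 and 10000 CPM were reached by 139, 57 and 17 miRNAs. With all libraries thinned to the depth of the shallowest, 506 miRNAs had a read in all 3.

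The 4 most abundant miRNAs were close to each other and changed places between libraries. miR-10a-5p, encoded in the HoxB gene cluster, stood at 107523, 133354 and 136513 CPM in libraries 1, 2 and 3. miR-10b-5p, its counterpart in the HoxD cluster, stood at 110122, 130390 and 114161 CPM. miR-22-3p, a miRNA of many tissues, stood at 120544, 105896 and 119955 CPM. miR-192-5p, the kidney-enriched miRNA of tubules, stood at 123303, 114593 and 105571 CPM. Their ranges overlapped, and each neighbouring pair in the order of the means differed by less than the SD of its difference. miR-192-5p ranked first in library 1 and last of the 4 in library 3, miR-10a-5p last and first. The 95% Wilson intervals of these 4 in single libraries were at most 0.0712 percentage points wide, narrower than their SDs of 0.829 to 1.59 points.

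**Figure D1:**
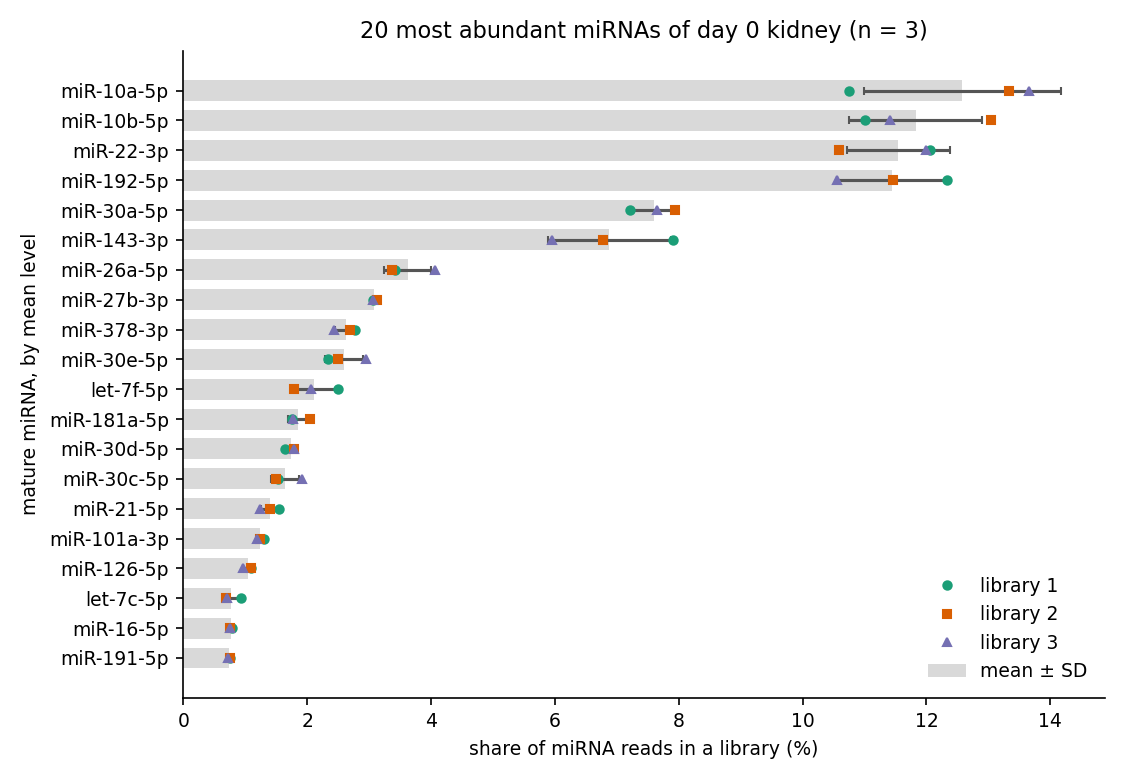
Share of miRNA reads (%, x axis) of the 20 most abundant mature miRNAs (y axis) at day 0. Bars give the mean, whiskers the SD over 3 libraries and symbols each library. The first 4 lie between 11.4% and 12.6% and overlap, and a step down to miR-30a-5p at 7.60% follows.

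Below these came miR-30a-5p, the most abundant member of the tubule-associated miR-30 family, with 72041, 79387 and 76494 CPM (7.60% ± 0.370). It lay under miR-192-5p in all 3 libraries, by 38515 ± 11457 CPM. miR-143-3p, known from vascular smooth muscle and fibroblasts, had 79142, 67762 and 59518 CPM (6.88% ± 0.985), falling on both sides of miR-30a-5p. A second step separated miR-143-3p from miR-26a-5p, a widespread miRNA, with 34238, 33697 and 40647 CPM. miR-27b-3p had 30685, 31253 and 30627 CPM, with an SD of 0.0346 percentage points. Its coefficient of variation was the lowest among the 20 most abundant, 1.12%, against 0.276% from counting error alone. miR-378-3p, encoded in an intron of the mitochondrial regulator Ppargc1b, held 2.63% ± 0.180 and miR-30e-5p 2.59% ± 0.314, and these did not differ beyond their spread.

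Ranks 11 to 20 were held by let-7f-5p (2.12% ± 0.362), miR-181a-5p (1.85% ± 0.162), miR-30d-5p (1.74% ± 0.0792), miR-30c-5p (1.64% ± 0.229), miR-21-5p (1.40% ± 0.151), miR-101a-3p (1.24% ± 0.0558), miR-126-5p (1.05% ± 0.0805), let-7c-5p (0.772% ± 0.134), miR-16-5p (0.765% ± 0.0192) and miR-191-5p (0.738% ± 0.0203). miR-21-5p, known to rise in injured kidney, was thus already the fifteenth most abundant miRNA at day 0, at 15465, 13982 and 12441 CPM. Among the 20 steps from rank 1 to rank 21, 8 kept their order in all 3 libraries and were larger than the SD of the difference. These were the steps from miR-192-5p to miR-30a-5p, from miR-143-3p to miR-26a-5p, on to miR-27b-3p and to miR-378-3p, from miR-21-5p to miR-101a-3p, on to miR-126-5p and to let-7c-5p, and from miR-16-5p to miR-191-5p. The order within the other 12 pairs is not fixed by these libraries. In all, 9 miRNAs were among the top 10 of every library and 19 among the top 20.

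By family, the 10 families with most reads held 85.7% ± 0.387 of the reads and the first 5 held 68.5% ± 1.08. Families are grouped here by name, with both arms of each hairpin summed, so a family's reads do not all carry 1 seed. The miR-10 family led with 21.8%, 26.4% and 25.1% in the 3 libraries (24.4% ± 2.38). It was split almost evenly: the ratio of miR-10a-5p to miR-10b-5p was 0.976, 1.02 and 1.20. The miR-30 family followed with 13.3%, 14.3% and 15.0% (14.2% ± 0.833). It was shared among 5 members, with miR-30a-5p at 75974 ± 3701 CPM, miR-30e-5p at 25923 ± 3136, miR-30d-5p at 17370 ± 792, miR-30c-5p at 16425 ± 2295 and miR-30b-5p at 3040 ± 437. miR-30a-5p alone made up 53.5% ± 2.18 of the family.

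Families 3 to 5 each rested on 1 strand. miR-22-3p was 99.95% of the miR-22 family (11.6% ± 0.830 of all reads), miR-192-5p 99.96% of the miR-192/miR-215 family (11.5% ± 0.887) and miR-143-3p 99.98% of the miR-143 family (6.88% ± 0.985). miR-215-5p, with the seed of miR-192-5p, had only 25.5, 18.0 and 18.2 CPM, and miR-192-5p exceeded it 5664 ± 777 fold. The let-7 family, known to restrain growth and developmental programmes, was the opposite case, with 4.98% ± 0.796 spread over many members. let-7f-5p made up 42.4% ± 0.780 of it, ahead of let-7c-5p at 7720 ± 1340 CPM, let-7a-5p at 6720 ± 1141, let-7g-5p at 5687 ± 816, let-7i-5p at 2558 ± 338, let-7b-5p at 2162 ± 296, let-7d-5p at 1559 ± 202.7, miR-98-5p at 705 ± 118 and let-7e-5p at 525 ± 55.5. The family had 5.86% of the reads in library 1, 4.30% in library 2 and 4.79% in library 3.

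**Figure D2:**
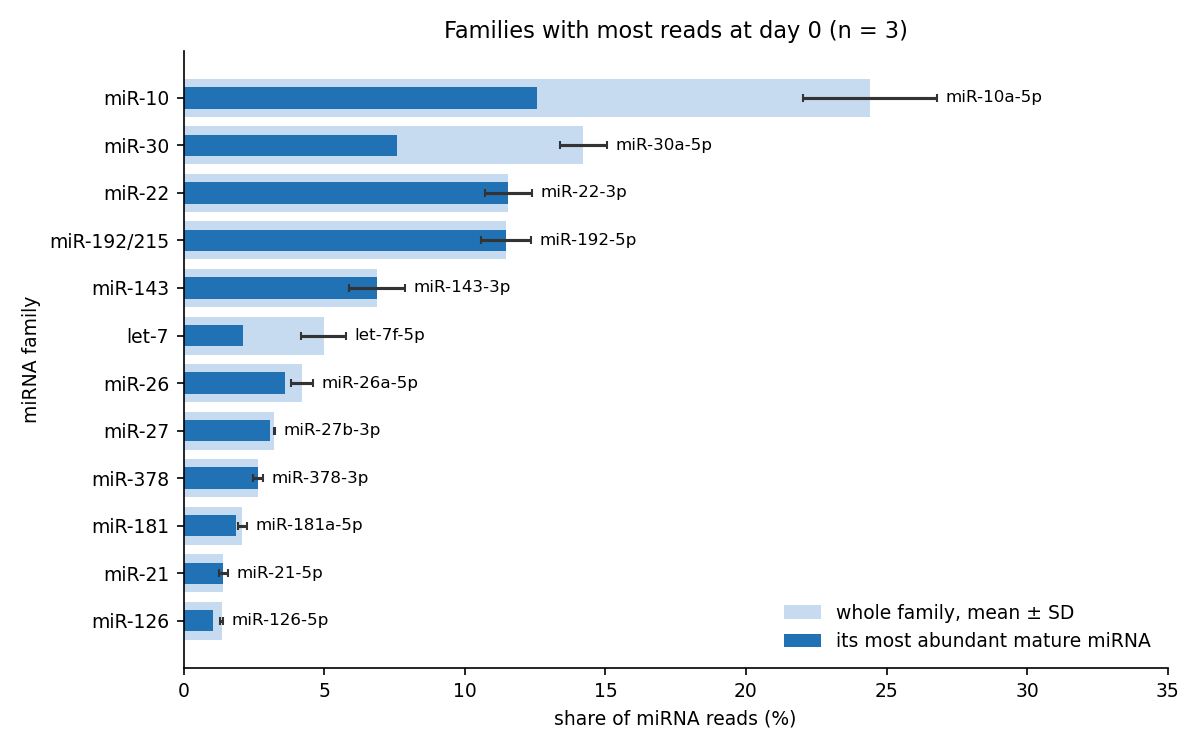
Share of miRNA reads (%, x axis) of the 12 families with most reads (y axis) at day 0, as mean ± SD over 3 libraries (light bars), with the part held by the most abundant mature miRNA named beside each bar (dark bars). The miR-10, miR-30 and let-7 families are shared by several members, while miR-22, miR-192/miR-215, miR-143 and miR-378 rest on 1.

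Of the next families, miR-26 held 4.22% ± 0.388, with miR-26a-5p 6.11 ± 0.730 fold above miR-26b-5p. The miR-27 family held 3.23% ± 0.0281, with miR-27b-3p 22.9 ± 2.93 fold above miR-27a-3p, although 1 base separates them. miR-378 held 2.65% ± 0.181 and miR-181 held 2.09% ± 0.171, of which miR-181a-5p was 88.7% ± 0.463. Thus in 5 of the 10 leading families (miR-22, miR-192/miR-215, miR-143, miR-27 and miR-378) 1 mature miRNA held over 95% of the family's reads. Among the matched sequences, a U at base 1, the base preferred by Argonaute proteins, was carried by 40.6% of 374 miRNAs with a read in all libraries but by 65.2% ± 1.94 of the reads. A G at base 1 was carried by 11.0% of these miRNAs and 0.275% ± 0.0172 of the reads. These shares cover the 83.5% ± 1.45 of reads whose miRNA matched a RefSeq sequence. They rest largely on few miRNAs: miR-10a-5p and miR-10b-5p, which both begin with U, held 24.4% of all reads. The 374 miRNAs include minor arms. Whether base 1 bears on the level was not tested.

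By genomic cluster, 39 listed clusters held 48.3% ± 1.32 of the reads and the 5 largest held 34.2% ± 1.16, each mature miRNA counted once. A mature miRNA made from several loci is counted in each of its clusters below, since its reads cannot be assigned to 1 locus. The largest was miR-192/miR-194 (11.8% ± 0.909), followed by miR-30a/miR-30c (9.42% ± 0.444), miR-143/miR-145 (6.95% ± 0.978), miR-30e/miR-30c (4.397% ± 0.542) and miR-23b/miR-27b/miR-24 (3.29% ± 0.0176). Then came let-7a/let-7f/let-7d (3.01% ± 0.507), let-7f/miR-98 (2.19% ± 0.374), miR-30b/miR-30d (2.06% ± 0.111), miR-181a/miR-181b (1.97% ± 0.164) and let-7c/let-7b (1.02% ± 0.162). miR-10a, miR-10b and miR-22, 3 of the 4 most abundant, belong to none of them.

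Products of 1 cluster differed widely in level. miR-192-5p exceeded miR-194-2-5p, its neighbour in the same cluster, 36.5 ± 0.852 fold, with 36.4, 37.4 and 35.7 fold in the 3 libraries. miR-143-3p exceeded miR-145-5p 159, 151.3 and 102 fold, and miR-27b-3p exceeded miR-23b-3p 28.1 ± 2.90 fold. miR-182-5p exceeded miR-183-5p 21.8 ± 1.87 fold and miR-96-5p 272 ± 91.1 fold, although the 3 come from 1 transcript. Closer pairs were miR-222-3p and miR-221-3p, at 1.19 fold, and miR-200b-3p and miR-200a-3p, at 2.40 ± 0.0146 fold. Ratios were also taken over 20 clusters, using in each only the members with a single matched locus. Members whose name carries a locus number, miR-24-2 and miR-194-2, were left out, so the miR-192/miR-194 cluster is not among the 20. miR-92a, whose name matched no locus in the gene annotation used although RefSeq gives loci for it, was also left out. So were clusters whose lowest member had 0 reads in a library, and those with too few or too many usable members. Clusters spread beyond 50 kb or over several chromosomes were left out too. Among the members used, the highest exceeded the lowest 9.58 fold by median, and more than 10 fold in 9 clusters. Some of these ratios hardly varied between libraries, such as that of miR-191-5p to miR-425-5p (21.3 ± 0.264), whereas the ratio of miR-99b-5p to let-7e-5p was 3.04, 5.07 and 8.92.

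Places are given from the GENCODE vM21 annotation (GRCm38). The deposited table holds no coordinates, and its authors used the build mm9. Mir10a lies at chr11:96317165-96317274, plus strand, outside any annotated gene on that strand. Mir10b lies at chr2:74726070-74726137, plus strand, in introns of Hoxd3 and Hoxd4, and Mir22 at chr11:75463716-75463810, plus strand, in an exon of its noncoding host Mir22hg that is also annotated to the coding gene Tlcd2. Mir192 lies at chr19:6264844-6264932, plus strand, beside Mir194-2 at chr19:6264643-6264728, and Mir30a at chr1:23272269-23272339, plus strand, all outside protein-coding genes. Mir30e lies at chr4:120772606-120772697, minus strand, in an intron of Nfyc, together with Mir30c-1. Hairpins inside a protein-coding gene on the same strand gave 44.2% ± 0.565 of the reads, those outside 50.6% ± 0.816, and those with loci of both kinds 4.62% ± 0.428. miR-22, with 11.6% ± 0.830 of the reads, was counted as inside through its overlap with Tlcd2. miR-26a (Ctdspl and Ctdsp2), miR-26b (Ctdsp1), miR-103 (Pank3 and Pank2) and miR-107 (Pank1) each sit in a gene of the same host family as their relatives.

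The 5p arms of all hairpins together held 66.4%, 69.7% and 69.1% of the reads (68.4% ± 1.75) and the 3p arms 31.4% ± 1.73. Rows whose name gives no arm held 0.134% ± 0.0199. For 187 hairpins with both arms in the table and a mean of at least 10 CPM on one of them, the arms were compared within each library on the log2(CPM + 1) scale with limma. Of these, all but 5 differed (97.3% at a Benjamini-Hochberg adjusted p under 0.05), 102 with the 5p arm higher (54.5%) and 80 with the 3p arm higher (42.8%). One arm held at least 90% of the hairpin's reads in 82 cases on the 5p and in 60 on the 3p side. A hairpin could enter through its larger arm alone, which favours a difference between the arms. In 34 of the hairpins the smaller arm had 0 reads in a library. These counts and shares thus hold for this filter only: without it, 268 of 373 hairpins differed. The larger arm was the same in all 3 libraries for 186 hairpins, and 12 hairpins had arms within 2-fold of each other.

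The 10 hairpins with most reads each kept nearly all of them on 1 arm. The 5p share was 99.9% for miR-10a, 99.98% for miR-10b, 99.98% for miR-192 and 99.99% for miR-26a. The 3p arm led in miR-22, where 56.2 ± 5.06 CPM came from the 5p arm against 115465 ± 8292 from the 3p arm (log2 ratio -10.98, SE 0.07, limma adjusted p = 1.11e-30, with 1.72e-263 to 2.39e-06 over the alternative settings). It also led in miR-143, with 16.5 ± 3.44 against 68807 ± 9854 CPM (log2 ratio -11.95), in miR-27b and in miR-378. miR-30a and miR-30e were the least one-sided of the 10, with 97.9% ± 0.177 and 94.9% ± 0.428 on the 5p arm. Their minor arms were therefore still abundant, miR-30a-3p at 1593 ± 72.4 CPM and miR-30e-3p at 1373 ± 42.8 CPM. Among hairpins with at least 100 CPM, the largest log2 ratios were those of miR-26a, miR-192 and miR-10b towards 5p, and miR-143, miR-429 and miR-103 towards 3p. These ratios are on CPM + 1, which limits them in less abundant hairpins. An order by share differs: miR-182-5p, for example, had 2367.3 of its hairpin's 2367.6 CPM, a larger share than that of miR-192-5p or miR-10b-5p. miR-429-5p had 0, 1 and 0 reads against 3592, 2802 and 3068 CPM of miR-429-3p.

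In 45 of the 187 hairpins tested, neither arm reached 90% of the reads, and 12 of the 187 had arms within 2-fold of each other. The 5 with most reads among those within 2-fold were miR-872, miR-339, miR-152, miR-361 and miR-106b. miR-872-5p had 227, 218 and 230 CPM and miR-872-3p 199.4, 180.9 and 207.7 CPM, a log2 ratio of 0.20 (SE 0.16, limma adjusted p = 0.227). The ratio was 0.14 for miR-339 (limma adjusted p = 0.368) and 0.16 for miR-361 (limma adjusted p = 0.329), and the other 2 that did not pass were miR-144 (limma adjusted p = 0.0795) and miR-3096b (limma adjusted p = 0.500). miR-152-3p exceeded its 5p arm, by 0.74 on the log2 scale, and miR-106b-5p exceeded its 3p arm by 0.92. The endothelial hairpin miR-126, whose 3p arm is the better known one, had more 5p reads: 10986, 10943 and 9570 CPM against 3006, 2785 and 3233 CPM. That is a ratio of 3.51 ± 0.500 (limma adjusted p = 3.04e-12, with 1.75e-43 to 0.000594 over the alternative settings), higher in 3 of 3 libraries. miR-142-5p exceeded miR-142-3p 11.2 ± 1.65 fold, and in miR-151 the 5p arm held 32.2% ± 6.18.

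**Figure D3:**
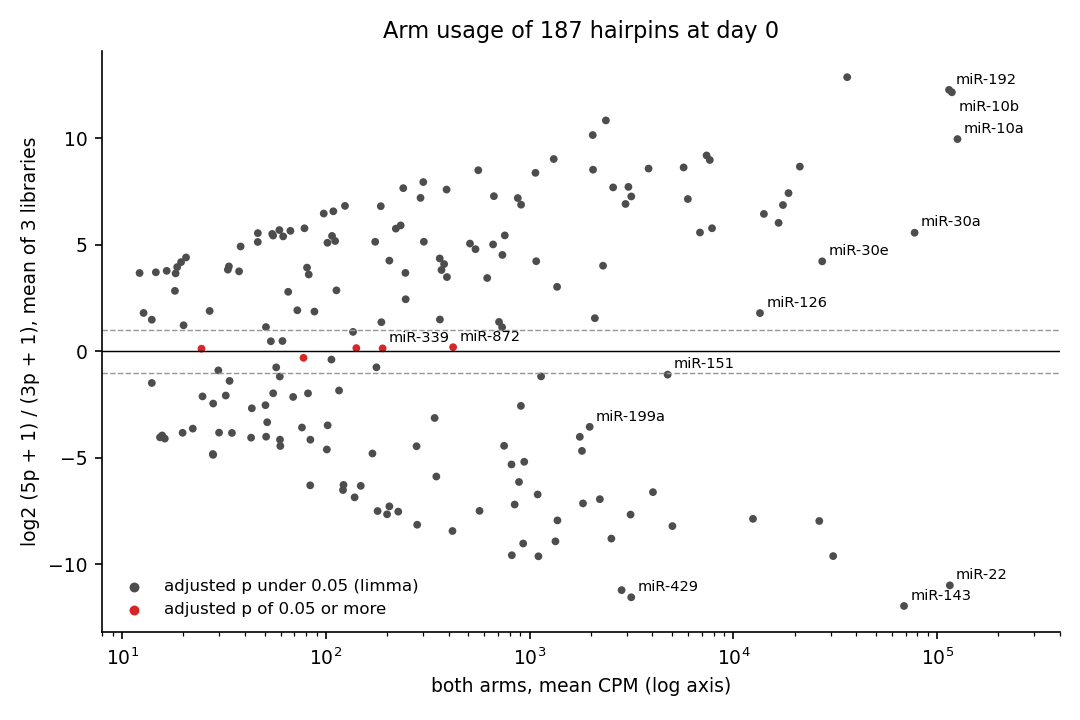
Level of both arms of a hairpin together (mean CPM, log x axis) against the log2 ratio of the 5p to the 3p arm (y axis, mean of 3 libraries, on CPM + 1) for 187 hairpins. Dashed lines mark 2-fold, and red points are the 5 hairpins with an adjusted p of 0.05 or more. Abundant hairpins such as miR-10a, miR-192, miR-22 and miR-143 lie far from 0, and miR-872 and miR-339 near it.

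Which cell types contribute was described with 16 lists of miRNAs known from cell types or other organs, 85 miRNAs in all. Of these, 56 had a read in all 3 libraries, 49 reached 1 CPM in all 3, and 24 had no read in any. In whole tissue, fewer cells of a type and less RNA per cell cannot be told apart. All 9 tubule miRNAs were detected and together had 363675 ± 18443 CPM, so the markers of the labelled tissue were present. This sum rests on miR-10a-5p, miR-10b-5p and miR-192-5p, of which the miR-10 pair is not restricted to tubules. The others were miR-194-2-5p (3135 ± 224 CPM), miR-196b-5p (870 ± 116), miR-196a-5p (643 ± 80.6), miR-204-5p (300.5 ± 32.3), miR-190-5p (195 ± 23.4) and miR-215-5p (20.6 ± 4.29).

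All 8 epithelial miRNAs were detected, with 12305 ± 817 CPM together. The miR-200 family, which represses the mesenchymal regulators Zeb1 and Zeb2, was led by miR-200b-3p (3991 ± 566 CPM) and miR-429-3p (3154 ± 402), which share a seed. They were followed by miR-200a-3p (1661 ± 225), miR-141-3p (875 ± 156) and miR-200c-3p (138 ± 23.3). Both hairpins of the miR-200c/miR-141 cluster thus lay below those of the miR-200b/miR-200a/miR-429 cluster. miR-182-5p had 2367 ± 305 CPM, miR-183-5p 109 ± 15.2 and miR-96-5p 9.37 ± 3.28.

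The vascular and stromal lists were detected in full. The endothelial miR-126 arms had 13508 ± 624 CPM together. The smooth muscle list had 69531 ± 9779 CPM, nearly all of it miR-143-3p, whereas miR-145-5p had 510 ± 68.1, miR-145-3p 198 ± 55.7 and miR-143-5p 16.5 ± 3.44. Of the mesenchymal list, miR-199a-3p and miR-199b-3p each had 1816 ± 308 CPM in rows that hold identical reads, so the hairpins behind them cannot be separated and the list's sum of 3855 ± 617 CPM counts them in both rows. miR-199a-5p had 154.9 ± 20.6 CPM, miR-214-3p 44.5 ± 5.22, miR-199b-5p 12.0 ± 2.49 and miR-214-5p 10.6 ± 0.816.

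All members of the pan-leukocyte, myeloid, lymphoid and erythroid lists had a read in every library. The pan-leukocyte miR-142 arms had 558, 613 and 686 CPM together. miR-126-5p stood 18.7 ± 3.40 fold above miR-142-5p. The myeloid miR-223-3p had 31.99, 41.3 and 51.0 CPM. The minor arm miR-223-5p had 6, 8 and 6 reads, miR-511-3p 5, 9 and 6, and miR-511-5p 2, 6 and 2. The lymphoid miR-150-5p had 246, 264 and 362 CPM, miR-155-5p 54.8 ± 5.61, miR-342-3p 33.2 ± 3.55 and miR-150-3p 1.02 ± 0.670. The erythroid list, markers of red cells, had 3227, 3002 and 1251 CPM, so library 3 lay well below the other two. Its largest member was miR-486-5p (2625, 2509 and 997 CPM), followed by miR-451 (509, 401 and 205.5 CPM), miR-144-3p (52.6, 48.6 and 27.2 CPM) and miR-144-5p (40.5, 43.2 and 21.0 CPM).

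**Figure D4:**
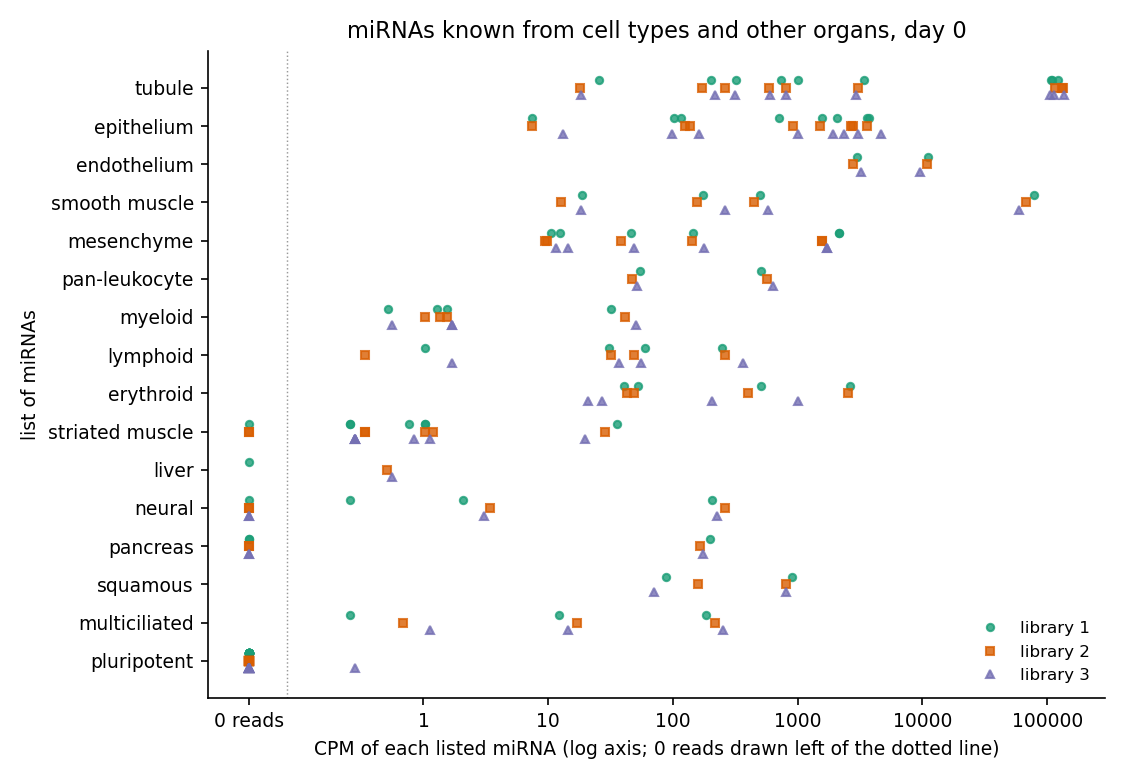
Level of each listed miRNA in each library (CPM, log x axis, 0 reads drawn left of the dotted line) for 16 lists of cell types and organs (y axis). Symbols mark the libraries. The tubule, epithelial, endothelial, smooth muscle, mesenchymal and erythroid lists have members with a mean above 1000 CPM, and nearly all pluripotent miRNAs lie at 0 reads.

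miRNAs of other organs were mostly scarce. The liver miRNA miR-122-5p had 0, 3 and 2 reads. Of 7 striated muscle miRNAs 5 had a read in all libraries, but only miR-133a-3p exceeded 1 CPM in all of them (27.9 ± 7.74 CPM). miR-1a-3p had 3, 6 and 4 reads, miR-133b-3p 4, 7 and 1, miR-208b-3p 4, 2 and 1, miR-499-5p 1, 2 and 1, miR-208a-3p 1, 0 and 3, and miR-206-3p 0, 0 and 1. The neuronal miR-124-3p had 1 read in the 3 libraries and miR-137-3p none, which allows up to 0.840 CPM in the shallowest library. In contrast, miR-9-5p, also known from neural cells, had 206.4, 260 and 224 CPM, with miR-9-3p at 2.85 ± 0.700. Of the pancreatic list, miR-216a-5p and miR-217-5p had no read, whereas miR-375-3p, which other epithelia and endocrine cells also express, had 199.1, 165 and 174 CPM. miR-203-3p of the squamous list had 840 ± 59.0 CPM and miR-205-5p 87.5, 160 and 70.3 CPM. Of the multiciliated list, miR-34c-5p had 217.4 ± 33.7 CPM, miR-34b-5p 14.5 ± 2.44 and miR-449a-5p 1, 4 and 4 reads. Of 22 miRNAs of pluripotent cells, 21 had no read in any library, and the remaining one had 1 read in library 3.

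The spread between libraries was larger than counting error for most miRNAs. Over the 139 miRNAs with at least 100 CPM the median coefficient of variation was 11.3%, against a median of 1.84% that counting alone would give, and 15 exceeded 20%. The lowest were those of miR-27b-3p (1.12%), miR-425-5p (1.82%), miR-582-3p (1.88%), miR-181b-5p (2.50%) and miR-16-5p (2.51%). The highest was that of miR-100-5p (74.1%), with 91.3, 122 and 343 CPM: its mean was 186 CPM with library 3 and 106.7 CPM without it. Next were miR-99b-5p (51.6%, with 1767, 2390 and 4648 CPM), miR-205-5p (44.8%), miR-486-5p (44.4%) and miR-3107-5p (44.4%). miR-3107-5p and miR-486-5p had the same values within 1%, and their hairpins overlap on opposite strands (chr8:23142573-23142662 and chr8:23142555-23142682).

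Of the 139 miRNAs, 10 differed by more than 1.5 times between library 3 and the mean of libraries 1 and 2, 6 higher and 4 lower in library 3, a bound chosen after the values were seen. The 6 were miR-100-5p, miR-99b-5p, miR-125a-5p, miR-125b-5p, miR-146a-5p (1.68) and miR-145-3p (1.57), and the 4 were miR-486-5p, miR-3107-5p, miR-451 and miR-205-5p (0.569). Most of them belong to 2 groups, also picked out after their values were seen. The first holds the 5p arms of the miR-99/100 family, with the seed ACCCGUA, and of the miR-125 family. The 3 mature sequences with this seed, seed in capitals, are alike over most of their length.
miR-99a-5p: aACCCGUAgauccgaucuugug
miR-99b-5p: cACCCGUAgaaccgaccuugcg
miR-100-5p: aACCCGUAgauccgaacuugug
Counted from the 5′ end, miR-99a-5p and miR-100-5p differ by U16A. Library 3 over the mean of libraries 1 and 2 was 3.22 for miR-100-5p, 2.24 for miR-99b-5p and 1.43 for miR-99a-5p, and 1.79 for miR-125a-5p and 1.74 for miR-125b-5p, members of a family that shares clusters with miR-99 and miR-100. let-7e-5p, which lies between miR-99b and miR-125a in 1 cluster, stood at 0.990, and miR-99b-3p at 1.35. let-7c-5p, with a locus beside miR-99a, stood at 0.877, and let-7a-5p, with a locus beside miR-100, at 0.922. The 3p arms miR-125a-3p and miR-125b-3p stood at 0.927 and 0.951. Other products of these clusters were thus not all higher in library 3. The second group, the erythroid miRNAs, was lower in library 3: 0.388 for miR-486-5p, 0.451 for miR-451, 0.537 for miR-144-3p and 0.502 for miR-144-5p. The part of blood in the other differences of library 3 was not tested.

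**Figure D5:**
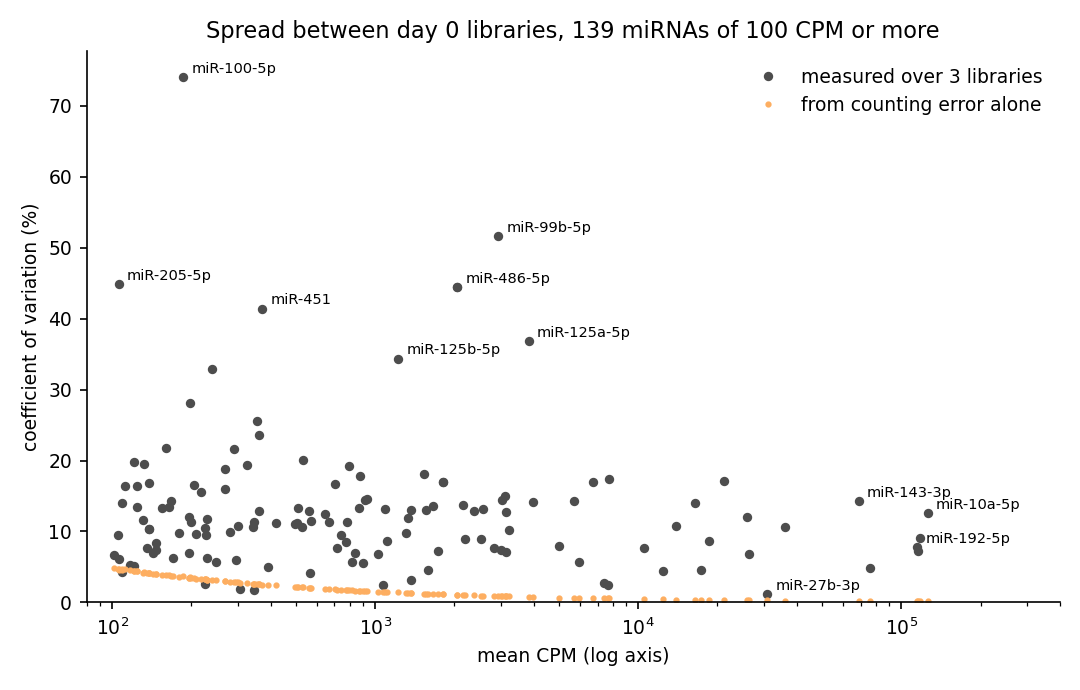
Mean level (CPM, log x axis) against the coefficient of variation over the 3 day 0 libraries (%, y axis) for 139 miRNAs with at least 100 CPM, with the value that counting error alone would give (orange). Most miRNAs lie above counting error with a median of 11.3%, and miR-100-5p at 74.1% and miR-99b-5p at 51.6% lie highest.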

How the data were processed

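Small RNA libraries of whole kidney were made with the TruSeq small RNA kit from Trizol RNA and read on a HiSeq 2000, per the labels' protocols. The submitters' processing notes name CASAVA 1.8 and the build mm9; which aligner and counting tool were used is not given in the sources used here. The deposited table calls its values counts, but they are CPM, since every column sums to the same round total. Whole reads were recovered from the deposited CPM for 100% of the day 0 values (tolerance 0.05 of a read, largest distance 0.0293). The design set CPM with limma, with edgeR on the recovered reads as an alternative.

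Only the 3 day 0 columns were used. Arms were compared with limma 3.58.1 in R 4.3.3 on log2(CPM + 1), as the 5p minus 3p difference in each library, with edgeR 4.0.16 as the alternative, for hairpins with a mean of at least 10 CPM on one arm. The arm test was also run on simulated hairpins, whose absolute log2 ratios all lay below the median of the hairpins tested here (4.85). That simulation thus does not cover hairpins as one-sided as most of those described. All else is mean ± SD. Families, clusters and cell type lists were written by hand from general knowledge. Names were matched to the table exactly, except that miR-194-5p is the row miR-194-2-5p and miR-1-3p the row miR-1a-3p. RefSeq sequences (GRCm38.p6) matched 839 of 1125 rows, and GENCODE loci 623 of 661 hairpin names. The miRNAs named were the 20 most abundant, all cell type list members, the leading members of the 10 largest families and clusters, the hairpins with most reads, with like arms or most one-sided, and the 5 highest and 5 lowest coefficients of variation. The members and lists were chosen with earlier results of these data known. The alternatives covered each library left out, other thresholds, pseudocounts, scalings and definitions of family and cluster.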

Additional observations from a re-analysis of the deposited data

How the results depend on the processing

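Leaving out each library in turn kept the share of the 10 most abundant miRNAs (73.8% ± 0.984) between 73.3% and 74.3%, that of the 5 largest families between 68.0% and 69.1%, that of the 5 largest clusters between 33.6% and 34.7%, the 5p share between 67.8% and 69.4%, the miRNAs detected between 533 and 559, the listed cell type miRNAs detected at 56 or 57, the hairpins tested whose arms were not called different at 6 or 7, and the miRNAs with a coefficient of variation over 20% between 13 and 22. These last settings for the spread were chosen after seeing the data. The main counts of detected miRNAs were 519, and 56 among those listed. A count of miRNAs with a read in all libraries kept cannot fall when a library is left out, so its direction was fixed in advance. Values that moved did so with the definition or the way of counting. Among rows matched to RefSeq only, the top 10 held 81.7%. Families defined by bases 2 to 8 or 2 to 7 of the matched sequences gave 64.1% in both cases, with the unmatched miR-143 and miR-30d absent. Clusters defined by a distance of 10 kb gave 29.9% and by 50 kb 36.2%. The 50 kb value counts miR-30c in 2 of its clusters, whereas the main value counts each mature miRNA once, so these 2 values are not alike. A 50 kb value with miR-30c counted once was not computed. With at least 10 CPM required in all libraries, 271 miRNAs were detected. With a filter of 100 CPM, 112 of 113 hairpins differed between arms, since fewer were tested, and with no filter 268 of 373. Of the hairpins tested, 5 were not called, against 7 with a pseudocount of 0.25 CPM, 4 with 5 CPM and 4 with edgeR on the recovered reads. TMM scaling gave a median coefficient of variation of 10.4%. In 263 further values, the shares of the 20 most abundant miRNAs and of the leading families moved by less than 1 SD, and the named hairpins kept the direction and call of their arm ratio. For the shares, leaving out a library cannot move a mean of so few libraries by 1 SD, so that outcome was fixed in advance. Only pooling the reads or counting identical rows once could have moved the share of a miRNA further. The size of an arm's adjusted p varied far more than its log2 ratio: for miR-22 it ran from 1.72e-263 with edgeR to 2.39e-06 without library 2, at log2 ratios between -11.01 and -10.88. Depth limits statements on scarce miRNAs: 187 had reads in only 1 or 2 libraries. No paired analysis was possible because a replicate block needs 2 groups of samples and only day 0 was described; the arm test already takes the difference within each library.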
